A study of Mus musculus with 4 samples.

Results

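Expression of 10 genes of MHC class I presentation was followed through RNA-seq of lumbar spinal cord. The rule names genes by their role and uses no measured value, although the list was drawn up with earlier results of these data known. The list holds the heavy chain genes H2-K1, H2-D1, H2-Q4, H2-Q7, H2-T22 and H2-T23, the light chain gene B2m, and the loading genes Tap1, Tap2 and Tapbp. Of the 18674 gene names in the table, 9 were these genes under their own names, and H2-Q4 was found through its RefSeq accession under the older name H2-gs10, so that 10 of 10 were accounted for.

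MHC class I molecules carry peptides from inside a cell to its surface, where CD8 T cells and natural killer cells read them. A heavy chain pairs with the light chain beta 2 microglobulin, the product of B2m. The TAP transporter, made of Tap1 and Tap2, pumps peptides into the endoplasmic reticulum, and tapasin, the product of Tapbp, holds the empty molecule at the transporter until a peptide binds. Resting neurons and glia carry little class I, and interferons raise it in many cell types. In mice H2-K1 and H2-D1 encode the classical, highly polymorphic heavy chains, while the Q and T genes encode less studied nonclassical ones.

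The animals were wild-type mice (WT) and mice that carry a human SOD1 transgene with the G93A change (G93A), a transgenic model of amyotrophic lateral sclerosis, on a mixed B6/SJLF1 background. Each genotype was given vehicle (PBS) or spermidine (SD), a natural polyamine, for 30 days at 4 doses a week as the sample labels give it, and the mice were euthanized at 100 days of age. The study's methods state that males were used. The 4 libraries, 1 per condition, are called WT vehicle, WT + SD, G93A vehicle or G93A + SD. Where 4 values stand in a row, the WT pair comes before the G93A pair, and vehicle before SD within each. For these libraries, the number of mice behind each is not given in the sources used here. No replicate spread can be had, so no comparison below carries a test or an error, and the difference between conditions cannot be told apart from a difference between the animals in the libraries. Every value in RPKM (the reads on a transcript divided by its length and by the size of the library) is that of a single library. The step size of low values gave an estimated depth of 36900000, 38300000, 38100000 and 38700000 read pairs, taking the commonest low value, 216 aligned bases, as 1 pair. Of the values used, 70.4 to 84.4% were whole multiples of that step within 0.1. The step was chosen to make this share largest, so the share does not check it. The 216 bases were found for 124 of 1487 low values. A gene was called higher or lower where 2 libraries differed at least 1.5-fold, and the share of called names is over the 12987 names that averaged 1 RPKM or more.

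The markers of lumbar cord, 4 Hox genes, summed to 37.6 RPKM with vehicle and 38.6 with SD in WT, and to 27.2 and 25.8 in G93A, against 1.21 to 1.64 RPKM for 3 brain genes and 0.276 to 0.350 RPKM for 3 skeletal muscle genes. Motor neuron markers summed to 79.1 RPKM with vehicle and 71.9 with SD in WT, and to 60.3 and 44.2 in G93A.

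Promoters of the class I genes hold short elements for interferon regulatory factors and NF-kB. They are shown here because exact matches to them differ among the heavy chains whose levels are compared below. The sequences are from RefSeq (GRCm38.p6), which matched 9 of 10 genes, and each is a window of 140 bases given 5′ to 3′ on the strand of its gene. Capitals mark GGGATTCCC (the NF-kB element of enhancer A), GAANNGAAA or a longer form with another A before the spacer (the interferon elements), TGACGC (part of a cAMP response element) and CCAAT (the Y box), on either strand. The classical genes were H2-K1 (chr17:34000328-34000467, minus strand) and H2-D1 (chr17:35262913-35263052, plus strand), which hold these 4 elements in the same order:
H2-K1: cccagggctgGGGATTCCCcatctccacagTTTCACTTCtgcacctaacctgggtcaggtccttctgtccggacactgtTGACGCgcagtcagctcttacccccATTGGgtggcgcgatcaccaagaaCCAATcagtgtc
H2-D1: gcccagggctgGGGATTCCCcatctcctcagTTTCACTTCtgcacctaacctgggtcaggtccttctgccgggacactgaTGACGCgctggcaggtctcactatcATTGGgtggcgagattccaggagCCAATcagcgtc

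The Q genes were H2-Q4 (chr17:35379434-35379573, plus strand), whose window holds the interferon and CCAAT elements but no GGGATTCCC, and H2-Q7 (chr17:35439011-35439150, plus strand), which has GGGATTCCC as well:
H2-Q4: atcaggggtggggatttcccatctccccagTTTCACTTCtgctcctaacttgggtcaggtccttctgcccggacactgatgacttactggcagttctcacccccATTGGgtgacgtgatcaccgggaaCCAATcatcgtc
H2-Q7: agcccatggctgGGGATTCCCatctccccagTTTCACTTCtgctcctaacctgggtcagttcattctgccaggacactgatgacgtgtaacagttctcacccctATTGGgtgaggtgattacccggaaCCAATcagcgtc

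The T genes were H2-T22 (chr17:36042794-36042933, minus strand) and H2-T23 (chr17:36032742-36032881, minus strand), and the light chain gene was B2m (chr2:122147506-122147645, plus strand). These windows hold the longer interferon element, which was searched for after the sequences had been seen:
H2-T22: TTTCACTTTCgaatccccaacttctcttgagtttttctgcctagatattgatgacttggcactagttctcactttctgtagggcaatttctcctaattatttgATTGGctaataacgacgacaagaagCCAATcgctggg
H2-T23: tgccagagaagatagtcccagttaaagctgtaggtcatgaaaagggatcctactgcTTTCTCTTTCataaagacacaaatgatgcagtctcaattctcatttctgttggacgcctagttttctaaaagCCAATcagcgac
B2m: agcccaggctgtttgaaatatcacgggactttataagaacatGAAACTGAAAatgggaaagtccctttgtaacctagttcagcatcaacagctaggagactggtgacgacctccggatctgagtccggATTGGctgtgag

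Over the whole promoter of 300 bases, GGGATTCCC was found in 3 of the 9 genes (H2-K1, H2-D1 and H2-Q7) and in 0.353% of 32851 promoters. GAANNGAAA was found in 4 (H2-K1, H2-D1, H2-Q4 and H2-Q7) and in 7.52% of the promoters, and the longer form in 3 (H2-T22, H2-T23 and B2m) and in 3.44%. TGACGC was found in 3 (H2-K1, H2-D1 and H2-Q4) and in 7.40%. CCAAT was found in 9 of 9 and in 37.4%. The promoters of Tap1 and Tapbp held none of these letters apart from CCAAT. Letters were matched exactly, so variant forms of an element were not counted or marked. H2-Q4, for instance, holds gggatttccc, with an added t, where H2-K1 and H2-D1 hold GGGATTCCC. The lack of a match is thus not the lack of an NF-kB element. A match describes the sequence, and no binding was measured.

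By level, B2m stood far above the rest. Its mean over the 4 libraries was above that of 99.3% of names, against 92.4% for H2-D1, 89.0% for H2-K1, 78.9% for Tapbp and 29.2% for H2-Q7, the lowest. Levels are compared between genes as RPKM, which are per length, and with 1 library the neighbours in an order cannot be set against a spread. B2m had the highest level of the 10 in each library, while H2-D1 was second in both vehicle libraries, Tapbp in WT + SD and H2-K1 in G93A + SD. H2-Q7 was the lowest in both vehicle libraries and H2-Q4 in both SD libraries. H2-Q7 had a mean of 0.874 RPKM and so lay below the floor of 1 RPKM that the other 9 passed. Its folds rest on 28.7 to 105 estimated read pairs, and over the 10 genes a value stood for 12.6 (H2-Q4 in WT + SD) to 12471 (B2m in G93A + SD).

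**Figure D1:**
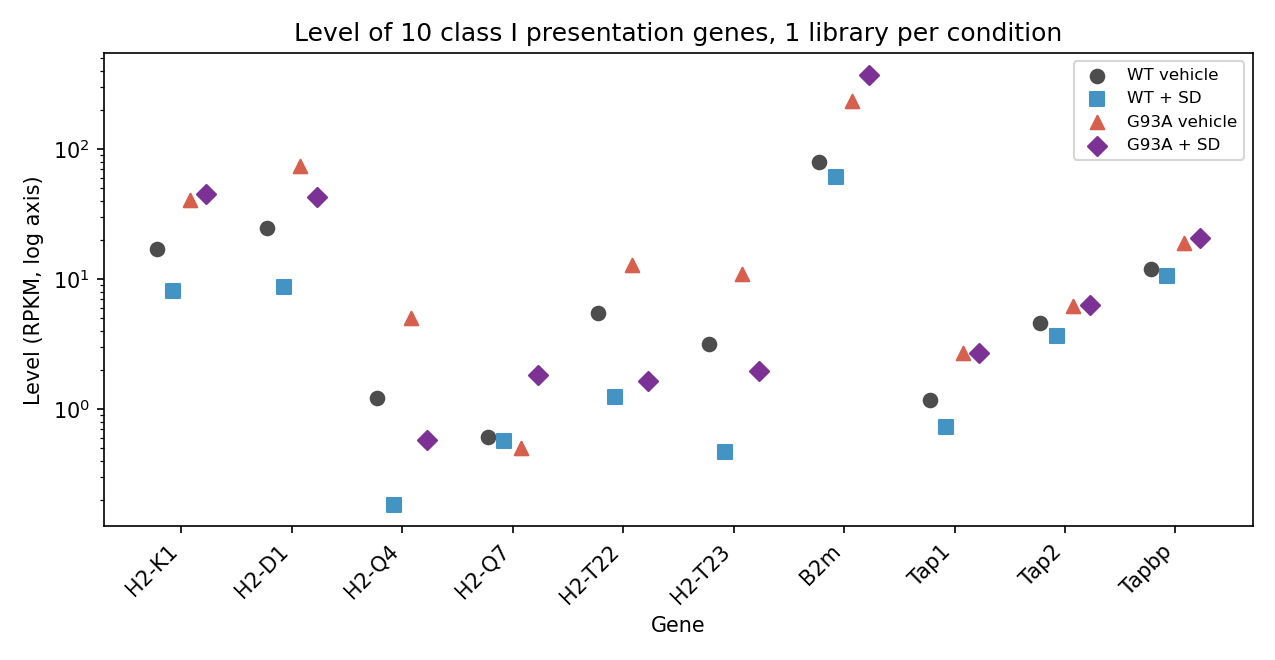
Level of each of the 10 genes in RPKM on a log axis, 1 point per library, with no error since each condition has 1 library. The G93A points lie above the WT points for B2m, Tap1, Tap2 and Tapbp, and for H2-K1 and H2-D1, whereas both SD points of H2-Q4, H2-T22 and H2-T23 lie below both vehicle points.

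H2-K1, on chromosome 17 from 33996012 to 34000619 (GRCm38), was at 17 RPKM with vehicle and 8.16 with SD in WT, and at 40.7 and 44.8 in G93A. Both G93A libraries lay above both WT libraries, and G93A exceeded WT 2.40-fold under vehicle (log2 1.26) and 5.49-fold under SD (log2 2.46). Its level with SD was 2.08-fold lower than with vehicle in WT, and in G93A the libraries were 1.10-fold apart. H2-D1, from 35263094 to 35267497, was at 24.8, 8.65, 73.7 and 43.0 RPKM in the same order. It was 2.97-fold higher in G93A under vehicle (log2 1.57) and 4.97-fold under SD (log2 2.31). With SD it was lower in both genotypes, 2.87-fold in WT and 1.71-fold in G93A, and the WT + SD library was the lowest for both classical genes.

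H2-Q4, from 35379617 to 35384674, was at 1.21 RPKM with vehicle and 0.183 with SD in WT, and at 5 and 0.576 in G93A. Both SD libraries were below both vehicle libraries, 6.63-fold in WT and 8.68-fold in G93A, where the WT + SD value stands for 12.6 estimated read pairs. G93A was 4.12-fold above WT under vehicle and 3.15-fold under SD. With a pseudocount of 1 RPKM the log2 difference between genotypes was 1.44 under vehicle and 0.41 under SD, the latter under the threshold, and that of SD was -0.90 in WT and -1.93 in G93A. H2-Q7, from 35439140 to 35443773, was at 0.607, 0.567, 0.503 and 1.82 RPKM. Its first 3 libraries lay close together, with G93A + SD 3.62-fold above G93A vehicle, or 0.91 on the log2 scale with the pseudocount, where it was 1.86 without.

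H2-T22, from 36037128 to 36042742, encodes a nonclassical molecule that some gamma delta T cells recognize. It was at 5.52 RPKM with vehicle and 1.23 with SD in WT, and at 12.9 and 1.64 in G93A. With SD it was 4.49-fold lower in WT and 7.88-fold lower in G93A, and the G93A and WT libraries with SD were 1.33-fold apart, under the threshold. H2-T23 encodes Qa-1, which presents leader peptides of other class I chains to natural killer cell receptors. It lies from 36029977 to 36032701 and was at 3.16, 0.469, 11 and 1.95 RPKM. G93A was 3.49-fold above WT under vehicle and 4.15-fold under SD, while SD was 6.75-fold below vehicle in WT and 5.67-fold below in G93A. The WT + SD value stands for 26.4 estimated read pairs, and with a pseudocount of 1 RPKM the log2 fold change with SD in WT was -1.5 where it was -2.75 without. With that pseudocount the log2 fold change of G93A against WT under SD was 1 where it was 2.05 without, and that of H2-T22 with SD in WT was -1.55 where it was -2.17. Both SD libraries of H2-Q4, H2-T22 and H2-T23 were lower than both vehicle libraries.

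B2m, on chromosome 2 from 122147687 to 122153082, is the gene of the list that lies outside chromosome 17. It was at 80.0 RPKM with vehicle and 60.7 with SD in WT, and at 236 and 375 in G93A. G93A was 2.95-fold above WT under vehicle (log2 1.56) and 6.17-fold under SD (log2 2.63). With SD the WT value was 0.760 times that with vehicle, under the threshold, and the G93A value was 1.59-fold higher. In G93A the level of B2m was higher with SD while those of H2-D1, H2-Q4, H2-T22 and H2-T23 were lower.

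Tap1, from 34187556 to 34197225 on chromosome 17, was at 1.17 RPKM with vehicle and 0.726 with SD in WT, and at 2.69 and 2.72 in G93A. G93A was 2.30-fold higher under vehicle and 3.74-fold under SD, WT + SD was 1.61-fold below WT vehicle, and the G93A libraries were 1.01-fold apart. With a pseudocount of 1 RPKM the log2 fold change of Tap1 with SD in WT was -0.33, under the threshold, and G93A against WT was 1.11 under SD where it was 1.90 without. Tap2, from 34204479 to 34216321, was at 4.63, 3.66, 6.20 and 6.29 RPKM, and passed the threshold between genotypes under SD (1.72-fold) but not under vehicle (1.34-fold). Tapbp, from 33919478 to 33929290, was at 11.9, 10.6, 19.1 and 20.9 RPKM. It was higher in G93A under vehicle (1.61-fold) and under SD (1.97-fold), and its SD libraries were 0.892 times the vehicle level in WT and 1.09 times in G93A. None of these 3 passed the threshold between SD and vehicle in G93A.

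Between genotypes under vehicle, 8 of the 10 genes were at least 1.5-fold higher in G93A and 0 lower, with a median log2 fold change of 1.24, against 13.5% of names higher, 4.68% lower and a median of 0.051 over names. Under SD, 9 of 10 were higher and 0 lower, with a median of 1.79, against 16.3% of names higher, 8.12% lower and a median of 0.048. With a pseudocount of 1 RPKM the median under SD was 0.96, with 8 of 10 higher. The 10 include H2-Q7, which lies under the floor that the share over names uses. These comparisons share no library. H2-Q7 was the exception to a higher level under vehicle, with Tap2 between the thresholds, and H2-T22 under SD. In 5 of 10, H2-K1, H2-D1, B2m, Tap1 and Tapbp, both G93A libraries were at least 1.5-fold above both WT libraries, against 11% of names.

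Most markers of microglia and some of astrocytes were higher in G93A. The 13 microglia markers summed to 261 RPKM with vehicle and 232 with SD in WT, and to 1588 and 1770 in G93A, and 12 of 13 were higher in each G93A library than in its WT counterpart, with 0 past the threshold with SD in either genotype. The 6 astrocyte markers summed to 1332, 1272, 3301 and 3830 RPKM, and 4 of 6 were higher in G93A at each treatment. Gfap makes up most of that difference, at 441 RPKM in WT vehicle and 2269 in G93A vehicle. Slc1a2 and S100b, named after their values were seen, did not pass the threshold. In the same order, the 5 oligodendrocyte markers summed to 8419, 8699, 6806 and 6259 RPKM, and the 5 endothelial markers to 31.3, 28.5, 29.5 and 22.4 RPKM. In whole cord, more cells of a type and more RNA per cell cannot be told apart, and the part of cell makeup in the G93A values of the class I genes was not tested.

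Between SD and vehicle in WT, 6 of 10 were lower and 0 higher, with a median of -0.87, against 1.36% of names lower, 0.909% higher and a median of 0.015. The 6 were Tap1 and the heavy chains other than H2-Q7. The share over names depends on the floor, since 2.26% passed in either direction with it and 11.4% of all names above 0 in both libraries did, and in G93A these shares were 2.38% and 11.8%. In G93A, 4 were lower and 2 higher, with a median of 0.017, against 1.04% of names lower, 1.34% higher and a median of 0.0088. The 4 lower were H2-D1, H2-Q4, H2-T22 and H2-T23, which were lower in both genotypes, against 0.293% of names. H2-Q4, with a mean of 1.74 RPKM, met the floor only through its G93A vehicle library. Its SD values, 0.183 RPKM in WT and 0.576 in G93A, lay under the floor, so its place among the 4 is a description. The 2 higher were H2-Q7 and B2m. None of the 10 was higher with SD in both genotypes, against 0.216% of names. The SD comparisons share libraries with the genotype comparisons, so a fold in one is tied to a fold in another.

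**Figure D2:**
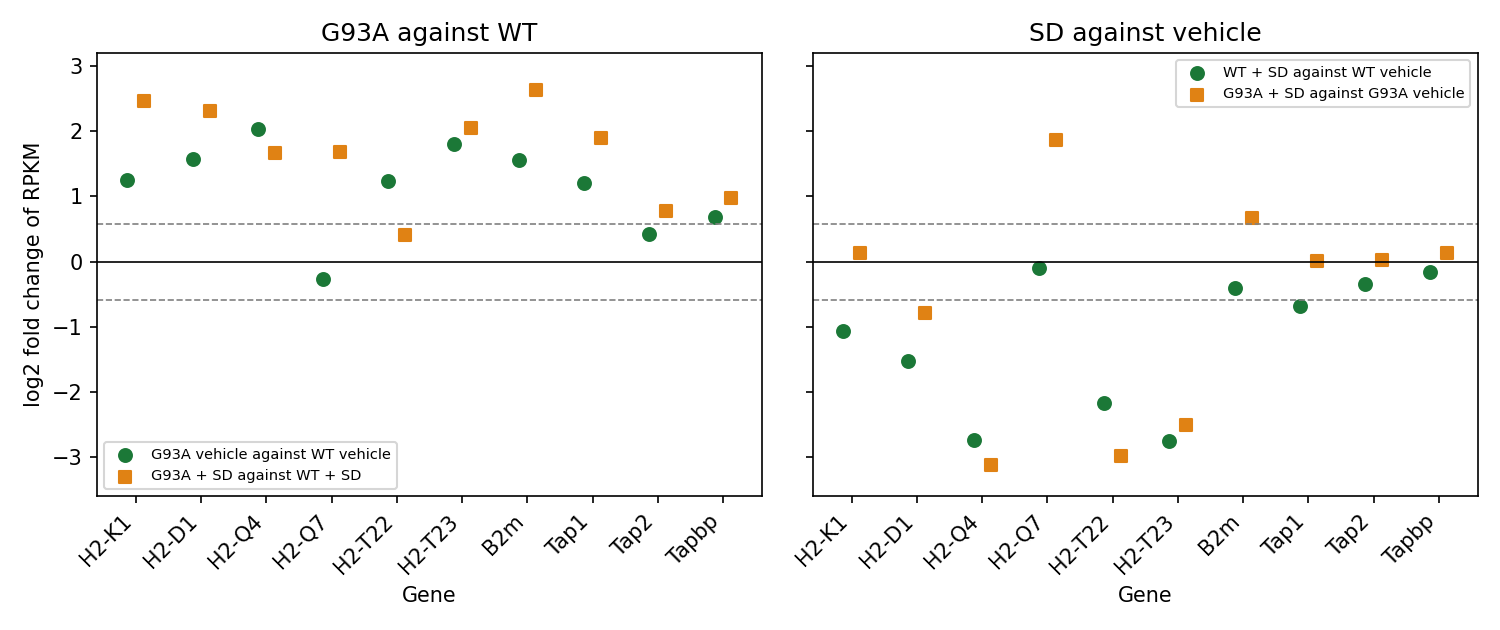
log2 fold change of RPKM for each gene, G93A against WT on the left and SD against vehicle on the right, with dashed lines at 1.5-fold. In the left panel 8 of 10 genes under vehicle and 9 of 10 under SD lie above the upper line, and in the right panel 6 lie below the lower line in WT, while in G93A 4 lie below it and 2, H2-Q7 and B2m, above the upper line.

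The 6 heavy chains had a median log2 fold change of -1.84 with SD in WT and -1.64 in G93A, with 5 of 6 lower in WT and 4 of 6 in G93A, and the exceptions were H2-Q7 in WT (-0.10) and H2-K1 (0.14) and H2-Q7 (1.86) in G93A. For B2m, Tap1, Tap2 and Tapbp the medians were -0.37 and 0.075, with 1 of 4, Tap1, lower in WT and 0 in G93A. The difference between these groups of genes was not tested. The ratio of H2-D1 to H2-K1 was 1.46 with vehicle and 1.06 with SD in WT, 1.81 and 0.960 in G93A, and thus lower with SD in both genotypes. The ratio of B2m to the summed heavy chains was 1.53, 3.15, 1.64 and 4.00, close together in both vehicle libraries and higher in both SD libraries. The ratio of B2m to H2-K1 was 4.71, 7.45, 5.79 and 8.37, and was higher with SD in each genotype as well. The sum covers the 6 listed chains and leaves out other class I names given below. Of these, H2-T9 and LOC547349 were lower with SD in both genotypes, and H2-T10 was higher. Since reads can be split among copies, these ratios do not measure the balance of light and heavy chains.

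**Figure D3:**
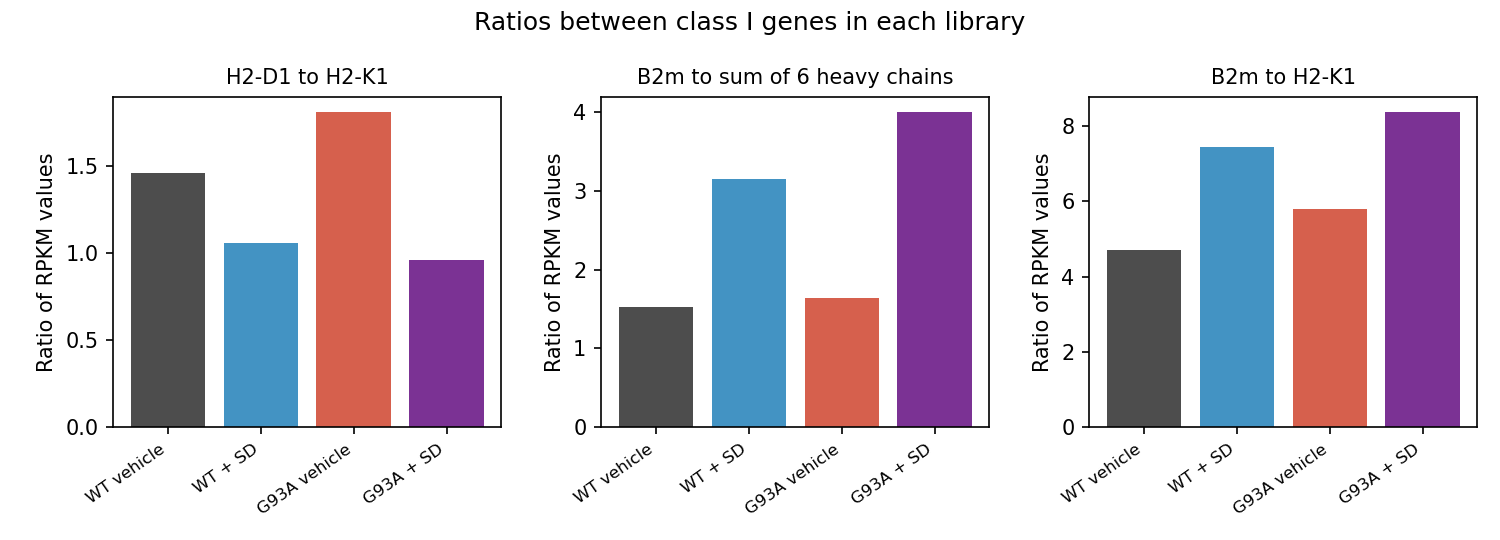
Ratios of RPKM values in each library, with bars from 0: H2-D1 to H2-K1, B2m to the sum of the 6 heavy chains, and B2m to H2-K1. In each genotype the first is lower and the others are higher with SD than with vehicle.

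The Q and T genes share stretches with other class I genes, so that reads can be split between copies. The share of 53-base windows of a transcript that also occur in another gene's transcript was 42.2% for H2-T22, 38.5% for H2-Q7, 26.3% for H2-T23, 21.3% for H2-Q4, 12.5% for H2-D1 and 7.15% for H2-K1, against 0% for B2m and 0.649 to 1.90% for Tap1, Tap2 and Tapbp. Of 108-base windows, 20.3% of those of H2-Q7 and 11.1% of those of H2-T22 were shared, against 0% for H2-K1. The gene that shared most of the 53-base windows of H2-T22 was H2-T10, which was at 2.17, 3.35, 0.857 and 4.23 RPKM and so higher with SD in both genotypes, where H2-T22 was lower. H2-T9, an H2-T22 relative, was at 5.78, 1.24, 13.4 and 1.67 RPKM, nearly the values of H2-T22, and the values of such copies are uncertain. How the counting treated reads with several matches is not given in the sources used here.

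The 9 chromosome 17 genes span 33919478 to 36042742 (GRCm38), a region of 2.12 Mb. A further 113 names in it are in none of the gene lists used here, which leaves out, for instance, Psmb8 and Psmb9 (peptide supply) and Aif1 (a microglia marker). Among the 80 of these that averaged 1 RPKM or more, 22 were higher and 1 lower in G93A under vehicle, 23 and 3 under SD, 7 and 4 with SD in WT, and 3 and 5 with SD in G93A, with medians of 0.19, 0.20, -0.076 and -0.068. Over all names that met the floor, the shares higher and lower were 13.5% and 4.68% under vehicle, 16.3% and 8.12% under SD, 0.909% and 1.36% with SD in WT, and 1.34% and 1.04% with SD in G93A. Named after their values were seen, Rps18, a ribosomal protein gene, was at 15.8 RPKM with vehicle and 0.798 with SD in WT, and at 32.6 and 1.51 in G93A. C4a, a complement gene that resembles C4b, was at 0.241, 1.55, 0.824 and 5.55 RPKM, and H2-Ob, a class II chain, at 0.231, 1.35, 1.11 and 6.64 RPKM. Cdsn, the gene of corneodesmosin, was at 0.122, 0.199, 3.23 and 7.32 RPKM. Rps18 was lower with SD in both genotypes, while C4a, H2-Ob and Cdsn were higher in both.

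Of these neighbours, 78 have a transcript paired with the GENCODE annotation, which C4a has not. Of the 78, 3 (3.85%), Rps18, H2-Ob and Cdsn, passed 1.5-fold with SD in the same direction in both genotypes, against 1.36% of 516 names on the remaining chromosome 17 and 0.370% of 12154 names on other chromosomes. H2-Ob and Cdsn pass the floor of 1 RPKM only through the libraries where they are high, and both WT values of Cdsn lie far under it, so these shares are a description. Neighbours under the floor are not counted. AA388235 (1.74, 0.00748, 1.75 and 0.0234 RPKM) and H2-K2 (1.47, 0.183, 1.45 and 0.274 RPKM), also named after their values were seen, were lower with SD in both genotypes. H2-DMb2, named in the same way, was higher in both (0.128, 0.480, 0.498 and 2.88 RPKM). The H2 haplotype of the mice in each library is not given, and a difference in haplotype between the mice, which were of mixed background, and the effect of SD cannot be told apart.

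**Figure D4:**
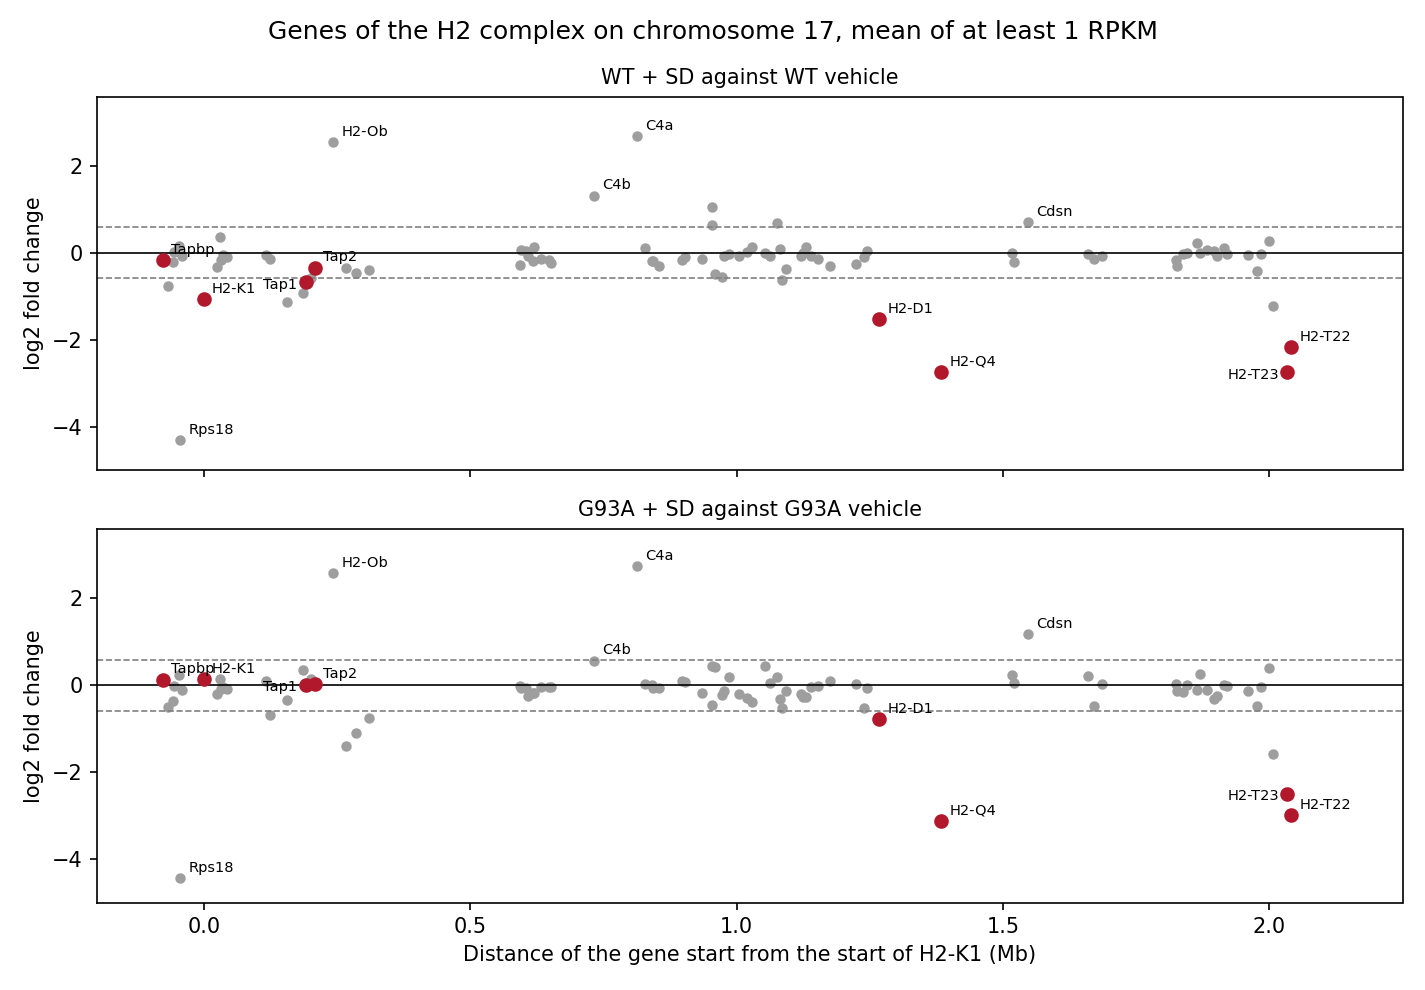
log2 fold change with SD in WT (top) and G93A (bottom) against the distance of each gene start from that of H2-K1 in Mb, for genes averaging 1 RPKM or more, with the class I presentation genes in red and dashed lines at 1.5-fold. H2-D1, H2-Q4, H2-T22 and H2-T23 lie below the lower line in both panels, as do Rps18 and H2-T24 (the unlabelled point beside H2-T23), and C4a, H2-Ob and Cdsn lie above the upper line in both. H2-Q7 had a mean under 1 RPKM and is not drawn.

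The genes with the profile most like the mean of the 10, over the 4 libraries and the 8841 names that averaged 5 RPKM or more, were Sgk1, LOC547349, Gabra2, Slc7a8 and Gcsh, at distances of 0.542, 0.554, 0.624, 0.637 and 0.640 on the centred log2 scale. LOC547349, for which RefSeq gives H2-K1 as a synonym, was at 26.0 RPKM with vehicle and 10.2 with SD in WT, and at 79.1 and 45.6 in G93A. With 4 points such a likeness is a description.

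Other class I and class I-like genes were 26, of which 20 were in the table and 8 averaged 1 RPKM or more. Of the 8, 5 were higher and 1 lower in G93A under vehicle (median log2 0.80), 3 and 0 under SD (0.47), 1 and 2 with SD in WT (-0.10) and 1 and 2 with SD in G93A (0.10), where 13.5% and 16.3% of names were higher between genotypes and 0.909% to 1.36% passed in a given direction with SD. Hfe, the iron regulator that pairs with B2m, was at 2.18 RPKM with vehicle and 2.17 with SD in WT, and at 6.38 and 7.21 in G93A. Fcgrt, the neonatal Fc receptor, was at 6.40, 6.68, 10.8 and 12.1 RPKM, and Mr1, which presents microbial metabolites, at 3.13, 2.39, 6.19 and 6.50 RPKM. These 3 were higher in G93A at both treatments and under the threshold with SD. H2-T10, given above, was lower in G93A under vehicle and higher with SD in both genotypes, and H2-T24 was at 1.94, 0.834, 3.49 and 1.18 RPKM, lower with SD in both.

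Of 10 genes of peptide supply and loading, 9 averaged 1 RPKM or more, and 4 were higher and 0 lower in G93A under vehicle (median log2 0.47), 5 and 0 under SD (0.86), 0 and 1 with SD in WT (0.023) and 0 and 0 with SD in G93A (0.085), against 13.5% and 16.3% of names higher between genotypes and 1.36% lower with SD in WT. The immunoproteasome subunits replace those of the standard proteasome and favour peptides that fit class I. Psmb8 was at 2.12, 1.43, 6.72 and 7.46 RPKM, and Psmb9 at 1.21, 0.639, 3.01 and 3.83 RPKM, the latter lower with SD in WT. Psme1, a proteasome activator subunit, was at 11.2, 8.91, 17.8 and 18.9 RPKM, and Erap1, which trims peptides, at 4.45, 4.73, 7.25 and 8.56 RPKM. These 4 were higher in G93A at both treatments.

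Of 19 regulators of class I genes, 16 averaged 1 RPKM or more, and 6 were higher and 0 lower in G93A under vehicle (median log2 0.45), 6 and 0 under SD (0.36), and 0 either way with SD in WT (0.047) or G93A (0.073). Among names 13.5% and 16.3% were higher between genotypes, and with SD so few passed (0.909% to 1.36% in a given direction) that a count of 0 among 16 is near that background. Irf8, a transcription factor of myeloid cells, was at 1.58, 1.24, 10.4 and 12 RPKM. The interferon receptor chains Ifngr1 (7.84, 8.36, 17.7 and 20.5 RPKM) and Ifnar2 (5.73, 6, 12.2 and 12.8 RPKM) were higher in G93A, as was Irf1, an interferon response factor, at 1.35, 1.45, 3.32 and 3.48 RPKM. Rela, an NF-kB subunit, was at 7.71, 7.89, 12.7 and 14.0 RPKM, and Nfya, which binds CCAAT, at 3.78, 4.2, 7.08 and 7.37 RPKM, and both were higher in G93A. Named after their values were seen, Nlrc5, the class I transactivator, was at 0.200, 0.125, 0.629 and 0.563 RPKM, under the floor, and the interferon gene Ifnb1 was at 0 in 3 libraries and 0.0342 RPKM in G93A vehicle.

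Of 13 genes listed as receptors of class I molecules, 10 were in the table. Lilrb4, an inhibitory receptor of myeloid cells, passed the floor, at 0.163 RPKM with vehicle and 0.219 with SD in WT, and at 14.0 and 16.3 in G93A. Whether Lilrb4 binds class I molecules was not examined here. Cd8a, the coreceptor of cytotoxic T cells, named after its values were seen, was at 0, 0.0416, 0.00845 and 0.0742 RPKM. The 7 T cell markers summed to 0.227, 0.639, 0.705 and 0.933 RPKM, with 3, 1, 0 and 0 of them listed at 0.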

How the data were processed

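RNA-seq values of 4 lumbar spinal cord libraries, 1 per condition, were taken as deposited by the authors, who state polyA libraries, 53-base sequencing, alignment with STAR and counting with HTSeq on the Ensembl gene set. The deposited values have no unit in their header, and they were read as RPKM: most low values used lay near multiples of a fitted step, and sums weighted by transcript length agree between libraries. The table lists RefSeq transcripts, so its values may not come from that counting, and the value of a gene name was the mean of its rows. Folds used no pseudocount, and a threshold of 1.5-fold was used among names averaging 1 RPKM or more. Coordinates are GRCm38. Nothing was tested, since each condition has 1 library. The rule for calling a name was run on simulated counts with planted changes well above the threshold and counting noise alone. That run does not cover differences between animals or reads shared among copies. The 10 genes and the lists were chosen with earlier results of these data known. Other genes were named as at most 6 of a list that passed 1.5-fold, by highest mean, and the 5 with the nearest centred log2(RPKM + 0.1) profile; those outside this rule are said to be named after their values were seen. Alternatives were a pseudocount of 1 RPKM, median-ratio scaling, the sum or the highest of a name's rows, a 2-fold threshold and all names above 0. Read pairs are estimates, since the 216 aligned bases taken as 1 pair do not match that read length. Windows of 53 and 108 bases were compared with GENCODE transcripts. The work ran in Python 3.11.15 with numpy 2.4.6 and pandas 2.3.3, and figures used matplotlib 3.10.9. Columns with the authors' own ratios between conditions were not used, and the library of each column was taken from its name. The strand and multi-match settings of the counting are not given in the sources used here.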

Additional observations from a re-analysis of the deposited data

Results flagged for a closer look

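For 6 genes the WT and G93A pairs differed in direction between SD and vehicle, and none of these differences was tested, with 1 library per condition. The log2 difference between the pairs, G93A minus WT, was 1.95 for H2-Q7 (-0.10 in WT and 1.86 in G93A), 1.19 for H2-K1 (-1.06 and 0.14), 1.06 for B2m (-0.40 and 0.67), 0.70 for Tap1 (-0.68 and 0.015), 0.36 for Tap2 (-0.34 and 0.020) and 0.29 for Tapbp (-0.16 and 0.13). For Tap1, Tap2 and Tapbp the G93A value was at most 0.13. H2-Q7 was also opposite between genotypes, at -0.27 under vehicle and 1.68 under SD, a difference of 1.95 that is the same quantity as its SD difference by construction, and it rests on 28.7 to 105 estimated read pairs. With a pseudocount of 1 RPKM the genotype values of H2-Q7 were -0.10 under vehicle and 0.85 under SD.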

How the results depend on the processing

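The number of the 10 genes past 1.5-fold moved by at most 1.5 times under a pseudocount, median-ratio scaling, the sum or the highest of a name's rows and a 2-fold threshold, which gave 7, 7, 5 and 4 genes in the order G93A vehicle against WT vehicle, G93A + SD against WT + SD, SD in WT and SD in G93A. A pseudocount of 1 RPKM lowered the median log2 fold change to 0.96 for G93A + SD against WT + SD and moved it to -0.65 for SD in WT. It took H2-Q4 (0.41, G93A + SD against WT + SD) and Tap1 (-0.33, SD in WT) under the threshold. Using the 9 genes listed by their own names, an alternative chosen after seeing the data, gave 1.90 and -0.68. Over all names above 0 in both libraries, the share at least 1.5-fold apart was 11.4% for SD in WT, where it was 2.26% with the floor of 1 RPKM, and 11.8% for SD in G93A, where it was 2.38%. Of 160 values of single genes under 4 settings, 0 past the threshold changed sign, and 22 of the 40 with a pseudocount moved by more than 0.1. That 0 was fixed beforehand and is no sign of robustness. A pseudocount or a sum of rows cannot reverse the order of 2 values, and most genes had a single row. The scaling factors, 0.977 to 1.03, were too close together to reverse a 1.5-fold difference. No replicate could be left out. No paired analysis was possible because each condition has 1 library. Low depth limits H2-Q4, H2-Q7 and H2-T23, each with a library under 30 estimated read pairs.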
